A study of Oryctolagus cuniculus with 134 samples.

Results

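CD14, TLR2, TLR4, CLEC7A, FCER1G, LYN and SYK are 7 genes of innate receptors and of the kinases next to them, out of 29587 genes counted in the rabbit aorta and heart valves. The rows were found by gene symbol, and each symbol had 1 row. The genes were selected on their library-scaled levels across the 5 tissues and 4 treatments, as seen in an earlier look at these samples, and which comparison weighed most in that choice is not recorded. Every comparison of the 7 is therefore given as a description without a p-value, and a count of genes past a threshold describes the set and is no evidence for it. The other genes of the pathways were tested. RNA came from 27 male New Zealand White rabbits, with 1 library per tissue of each rabbit (27 per tissue, and 26 for the mitral valve), from rings of the aorta and from all 4 heart valves, the aortic and mitral valves of the left heart and the pulmonary and tricuspid valves of the right heart. The protocol began at 12 weeks of age and ran for 16 weeks. Rabbits in the Ctrl group (n = 7, and 6 for the mitral valve) ate chow and had no vitamin D2. The CHT group (n = 6) ate a diet with 0.3% cholesterol and the Lard group (n = 7) a diet with 5% lard. Both had vitamin D2 for 15 days, at a dose of 25000 U/day stated for a given body weight. The IR/CHT group (n = 7) had the CHT diet, the same vitamin D2 and, after 8 weeks of diet, X-ray irradiation of the heart with 24 Gy in 3 fractions of 8 Gy. Every treated group thus differed from Ctrl in vitamin D2 as well as in fat. By the labels IR/CHT differed from CHT in irradiation, and from Lard in both the fat and irradiation. The rabbit numbers in the count tables lie in 1 shared range for CHT and Lard and in ranges of their own for Ctrl and for IR/CHT, so a difference between sets of animals and a difference between these treatments cannot be told apart. In both left heart valves the CHT group was sequenced on plate 1 of the 2 plates only, and the other groups on both. Where the labels describe the beam, for rabbits irradiated without the diet, they place it on the aortic valve and thoracic aorta, and they give no dose for the other valves. Rabbits given vitamin D2 alone or irradiation alone were not analysed here. Samples were whole aortic rings and whole valves, and in such bulk RNA fewer cells of a type and less RNA per cell cannot be told apart.

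Toll-like receptors sense microbial products and some products of damaged tissue. TLR4 responds to lipopolysaccharide, which CD14 hands to it, and TLR2 pairs with TLR1 or TLR6 to sense lipoproteins. Adaptor proteins such as MyD88 carry the signal to kinases of the IRAK family and on to NF-κB and cytokine genes. CLEC7A encodes Dectin-1, a C-type lectin receptor for β-glucans. FCER1G encodes the common Fc receptor γ chain, an adaptor that carries an immunoreceptor tyrosine-based activation motif (ITAM) and pairs with Fc receptors and several C-type lectins. LYN is a kinase of the Src family that phosphorylates such motifs, and SYK is the kinase that docks on them and passes the signal on. These genes are expressed chiefly in myeloid cells, among them the macrophages of atherosclerotic plaques, and in some other blood cells.

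The libraries held 13564979 to 50577676 counts on genes (median 18235577), so that 1 CPM (1 count per 1000000 of the library size scaled with the TMM method) stood for 12.8 counts in the smallest library. CPM is not set per gene length, so levels are compared between groups and not between genes. The genes TBX5 and ISL1, which mark different regions of the developing heart, went against the label of 2 libraries. The library labelled pulmonary valve Lard L271 had TBX5 at 36.2 CPM and ISL1 at 0.0906 CPM, where the other pulmonary valve libraries had TBX5 at 0 to 2.62 CPM and ISL1 at 8.44 to 15.6 CPM. The library labelled tricuspid valve Lard L272, of the same rabbit, showed the opposite, with TBX5 at 0.0669 CPM and ISL1 at 12.5 CPM, where the other tricuspid valve libraries had TBX5 at 12.0 to 126 CPM and ISL1 at 0 to 0.421 CPM. The library labelled aorta IR/CHT L566 had TBX5 at 6.16 CPM and ISL1 at 3.05 CPM, both outside the range of the other aorta libraries, but its TBX5 was under and its ISL1 over that of every mitral valve library, and its whole profile was closest to the aorta. The whole profile of 15 libraries, L271 and L272 included, was closer to another tissue than to its own. Pulmonary valve IR/CHT L275 stood apart from its group, with endothelial markers summing to 84.2 CPM where all other pulmonary valve libraries had at least 964 CPM, and its macrophage markers summed to 254 CPM. Ranges of the fold changes in the left heart valves, and the CD14 values of the right heart valves, are given with and without the libraries closer to another tissue, while group levels include all libraries unless said otherwise.

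Levels of the 7 genes were higher with the cholesterol diet in the aorta and the valves of the left heart, and differed much less between treatments in the valves of the right heart. IR/CHT was set against Lard, which sets the cholesterol diet with irradiation beside the other diet rich in fat. In the aorta, in the aortic valve and likewise in the mitral valve 7 of 7 were past an adjusted p of 0.05 and a fold of 1.5 (edgeR, quasi-likelihood), all higher on IR/CHT. Of all genes tested in these tissues, 23.8%, 39.4% and 18.4% were called, in that order, and those called higher on IR/CHT made up 15.3%, 20.2% and 11.5%. The median log2 fold change of the 7 was 3.01, 4.57 and 2.72, beside medians over all genes of -0.017, -0.038 and -0.014. In these 3 tissues every IR/CHT library lay above every Lard library for each of the 7 genes, and without the aorta library L566 all 7 were past the thresholds there as well. How many of all genes separated without overlap was not counted, here or in the comparisons below, so such statements only describe the 7 genes. In the pulmonary valve 2 of the 7 (CD14 and CLEC7A) were past them, beside 1.09% of all genes (0.844% higher on IR/CHT), and in the tricuspid valve 1 (CD14), beside 0.204% (0.109% higher on IR/CHT).

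**Figure D1:**
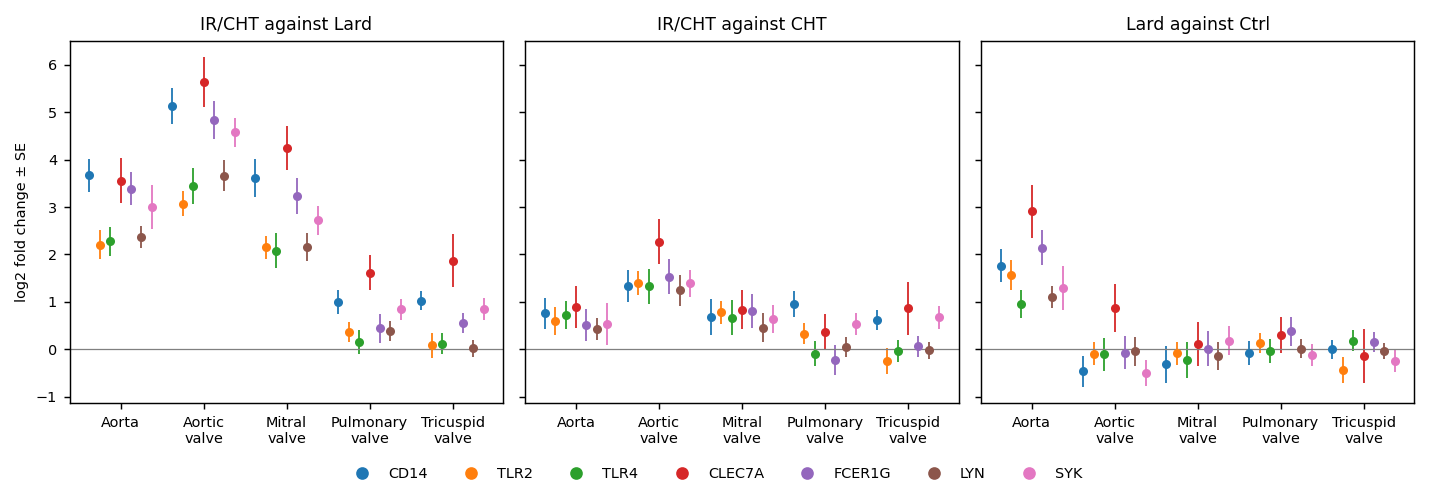
Log2 fold changes of the 7 genes, with lines of 1 SE to each side, for IR/CHT against Lard, IR/CHT against CHT and Lard against Ctrl in each tissue. All values are descriptions. For IR/CHT against CHT all 7 genes lie above 1 in the aortic valve, and for Lard against Ctrl the aorta has a median of 1.57.

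CD14 (ENSOCUG00000004218), the co-receptor that delivers lipopolysaccharide to TLR4, stood in the aorta at a median (lowest to highest library) of 2.52 CPM (1.07 to 3.68) in Ctrl, 5.67 (3.92 to 14.9) on Lard, 64.1 (30.5 to 89.1) on CHT and 114 (36.9 to 140.1) on IR/CHT. The 4 groups lay in steps, with all Lard libraries above all Ctrl libraries and all CHT and IR/CHT libraries above all Lard libraries. In the aortic valve the CD14 level was 7.01 CPM (3.51 to 9.59) in Ctrl, 4.88 (1.73 to 12.5) on Lard, 77.9 (43.0 to 102) on CHT and 191.7 (139 to 235.9) on IR/CHT. Here Lard did not stand above Ctrl, and all 7 IR/CHT libraries lay above the highest CHT library. Mitral valve CD14 was at 8.32 CPM (3.28 to 19.4) in Ctrl, 8.27 (3.26 to 13.8) on Lard, 60.5 (21.6 to 83.1) on CHT and 108 (56.0 to 119.6) on IR/CHT, with IR/CHT and CHT overlapping. Against Lard, CD14 was higher on IR/CHT by a log2 fold change of 3.67 ± 0.34 (SE) in the aorta, 5.13 ± 0.38 in the aortic valve and 3.61 ± 0.40 in the mitral valve, that is 12.7-fold, 35.1-fold and 12.2-fold. The log2 fold change of CHT over Ctrl, as a description, was 4.67 ± 0.37, 3.33 ± 0.35 and 2.62 ± 0.42 in the same order.

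TLR2 (ENSOCUG00000003367), the receptor for lipoproteins, was a gene of low counts in the aorta, at 0.904 CPM (0.381 to 1.85) in Ctrl, 2.80 (1.42 to 4.17) on Lard, 8.80 (6.20 to 12.5) on CHT and 12.9 (6.501 to 21.9) on IR/CHT. CHT and IR/CHT overlapped, and neither overlapped with Lard. Its aortic valve level was 3.73 CPM (2.76 to 4.79) in Ctrl, 3.17 (1.34 to 6.91) on Lard, 11.5 (6.88 to 14.3) on CHT and 27.4 (25.9 to 44.6) on IR/CHT. 1 IR/CHT library (L178) at 44.6 CPM stood apart from the others, the next being at 29.4 CPM, and even the lowest IR/CHT library was above the highest of the other groups. The mitral valve had 3.74 CPM (2.66 to 4.27) in Ctrl, 3.45 (1.71 to 4.92) on Lard, 8.39 (5.55 to 12.5) on CHT and 13.9 (7.87 to 20.1) on IR/CHT. On IR/CHT against Lard, TLR2 was higher by a log2 fold change of 2.21 ± 0.30 in the aorta, 3.07 ± 0.26 in the aortic valve and 2.15 ± 0.24 in the mitral valve. TLR2 had the smallest difference of the 7 genes in the aorta and the aortic valve. CHT over Ctrl was 3.18 ± 0.33, 1.58 ± 0.25 and 1.29 ± 0.26 in the same order of tissues.

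TLR4 (ENSOCUG00000002216), the receptor for lipopolysaccharide, had an aortic level of 5.91 CPM (2.02 to 8.38) in Ctrl, 10.1 (5.47 to 17.7) on Lard, 29.2 (15.8 to 43.2) on CHT and 51.7 (25.4 to 77.6) on IR/CHT. The lowest IR/CHT library was above the highest Lard library, while Lard and CHT overlapped. In the aortic valve TLR4 was at 7.73 CPM (3.401 to 15.7) in Ctrl, 4.72 (2.66 to 19.6) on Lard, 34.8 (25.1 to 53.9) on CHT and 93.8 (59.5 to 111) on IR/CHT, and 1 Lard library near 19.6 CPM stood well above the Lard median. Mitral valve TLR4 was at 13.9 CPM (4.85 to 21.9) in Ctrl, 9.96 (4.21 to 23.5) on Lard, 29.9 (20.9 to 40.8) on CHT and 46.1 (36.0 to 73.4) on IR/CHT. The 6 mitral valve Ctrl libraries fell into 3 low ones at 4.85 to 6.83 CPM and 3 high ones (L183, L241 and L278) at 21.0 to 21.9 CPM, so that CHT and Ctrl overlapped, the only such case among the 7 genes in the aorta and the left heart valves. TLR4 was higher on IR/CHT than on Lard by a log2 fold change of 2.28 ± 0.30 in the aorta, 3.45 ± 0.38 in the aortic valve and 2.08 ± 0.37 in the mitral valve. CHT over Ctrl was 2.52 ± 0.31, 2.02 ± 0.37 and 1.19 ± 0.39.

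**Figure D2:**
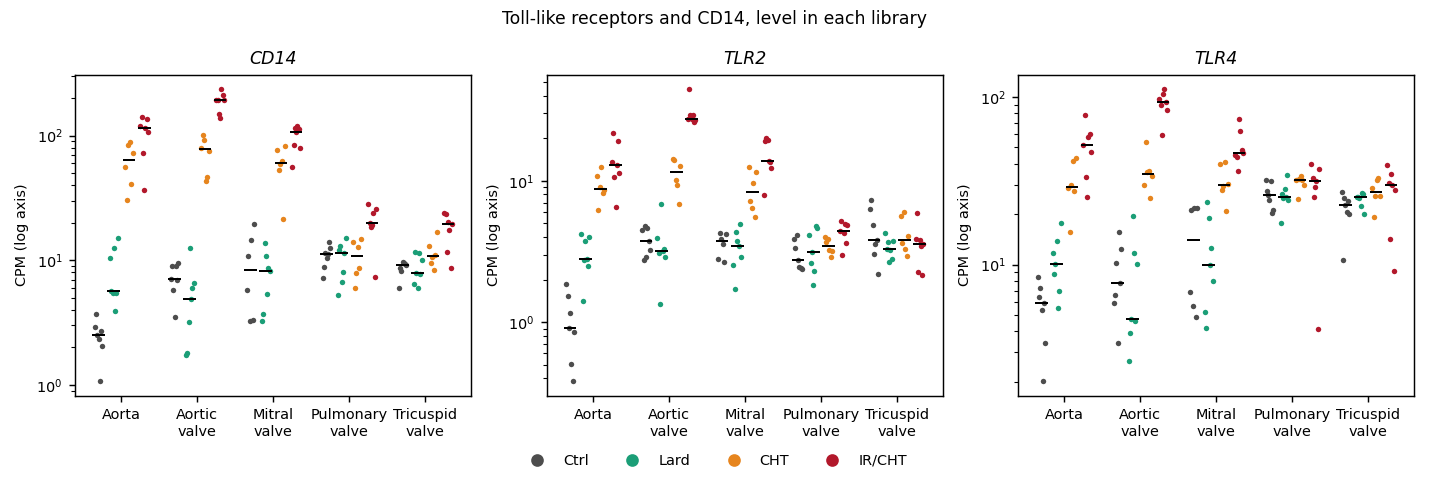
Level of CD14, TLR2 and TLR4 in each library, in CPM on a log axis, by tissue and treatment, where each point is 1 library and each bar the median of its group. In the aorta and both left heart valves all IR/CHT points lie above all Lard points, and in the pulmonary and tricuspid valves the groups overlap.

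CLEC7A (ENSOCUG00000016798), the β-glucan receptor Dectin-1, was close to the limit of detection in Ctrl tissue, with 1 to 6 counts per library in the Ctrl aorta. Its aortic level was 0.283 CPM (0.0643 to 0.387) in Ctrl, 1.21 (0.515 to 7.54) on Lard, 13.7 (5.50 to 22.7) on CHT and 22.9 (13.1 to 42.2) on IR/CHT, a series of groups without overlap except between Lard and CHT and between CHT and IR/CHT. The aortic valve had 0.423 CPM (0.0549 to 1.32) in Ctrl, 1.12 (0.185 to 1.61) on Lard, 9.81 (5.32 to 16.7) on CHT and 41.7 (38.4 to 86.1) on IR/CHT. No Ctrl or Lard library reached 2 CPM in that valve, and every IR/CHT library was above every CHT library. Mitral valve CLEC7A was at 0.960 CPM (0.354 to 1.80) in Ctrl, 1.14 (0.147 to 2.56) on Lard, 11.7 (5.36 to 21.7) on CHT and 22.7 (5.86 to 39.4) on IR/CHT. CLEC7A had the largest fold change of the 7 genes in the aortic and mitral valves. On IR/CHT against Lard it was higher by a log2 fold change of 3.56 ± 0.48 in the aorta, 5.63 ± 0.53 or 49.6-fold in the aortic valve and 4.25 ± 0.46 in the mitral valve. CHT over Ctrl was 5.57 ± 0.58, 4.23 ± 0.52 and 3.53 ± 0.49, and the aortic valve value was 5.62 on plate 1 alone. IR/CHT over Ctrl in the aortic valve was 6.504 ± 0.56, and 8.08 on plate 1 alone.

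FCER1G (ENSOCUG00000031105), the ITAM adaptor, stood in the aorta at 1.81 CPM (1.03 to 4.99) in Ctrl, 6.96 (5.58 to 19.2) on Lard, 74.1 (40.5 to 96.4) on CHT and 88.5 (46.7 to 171.6) on IR/CHT. Every Lard library was above every Ctrl library, and every CHT and IR/CHT library above every Lard library. In the aortic valve FCER1G was at 5.85 CPM (3.24 to 9.35) in Ctrl, 3.97 (1.77 to 13.7) on Lard, 58.0 (40.3 to 85.0) on CHT and 175.1 (147 to 238.6) on IR/CHT, with IR/CHT above CHT in all 7 libraries and Lard overlapping with Ctrl. The mitral valve had 7.89 CPM (3.38 to 13.0) in Ctrl, 8.04 (3.13 to 15.2) on Lard, 44.4 (16.6 to 60.7) on CHT and 85.5 (37.8 to 104) on IR/CHT. Against Lard the log2 fold change on IR/CHT was 3.39 ± 0.35 in the aorta, 4.84 ± 0.40 in the aortic valve and 3.23 ± 0.37 in the mitral valve. CHT over Ctrl was 5.02 ± 0.39, 3.24 ± 0.38 and 2.44 ± 0.39.

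LYN (ENSOCUG00000003056), the Src family kinase, had aortic levels of 9.64 CPM (6.36 to 14.7) in Ctrl, 17.3 (14.4 to 30.2) on Lard, 71.3 (50.4 to 126) on CHT and 118 (64.0 to 143) on IR/CHT. CHT and IR/CHT were clear of Lard, and Lard touched the upper end of Ctrl. Its aortic valve levels were 13.0 CPM (8.89 to 25.2) in Ctrl, 10.6 (8.82 to 37.7) on Lard, 87.1 (57.9 to 113) on CHT and 204 (133 to 288) on IR/CHT. The highest Lard library was still under every CHT and IR/CHT library. Mitral valve LYN was at 23.4 CPM (10.4 to 35.5) in Ctrl, 21.4 (10.6 to 34.9) on Lard, 75.9 (37.8 to 84.8) on CHT and 92.9 (59.6 to 148) on IR/CHT. LYN was higher on IR/CHT than on Lard by a log2 fold change of 2.36 ± 0.24 in the aorta, 3.66 ± 0.33 in the aortic valve and 2.15 ± 0.30 in the mitral valve. CHT over Ctrl was 3.03 ± 0.25, 2.38 ± 0.32 and 1.55 ± 0.32.

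SYK (ENSOCUG00000017539), the kinase that docks on phosphorylated ITAMs, stood in the aorta at 2.39 CPM (1.42 to 6.996) in Ctrl, 6.36 (2.30 to 24.4) on Lard, 46.4 (23.0 to 70.5) on CHT and 67.6 (38.5 to 92.2) on IR/CHT. Lard was the most spread of the 4 groups relative to its median, and its highest library was L578. SYK in the aortic valve was at 9.85 CPM (4.72 to 11.4) in Ctrl, 5.84 (3.02 to 12.7) on Lard, 51.6 (34.2 to 92.8) on CHT and 145 (115 to 207) on IR/CHT, with a Lard median under the Ctrl median and IR/CHT clear of CHT. The mitral valve had 8.93 CPM (5.05 to 13.7) in Ctrl, 10.98 (4.94 to 14.7) on Lard, 38.7 (17.9 to 73.4) on CHT and 71.2 (29.1 to 97.0) on IR/CHT. SYK was higher on IR/CHT than on Lard by a log2 fold change of 3.01 ± 0.46 in the aorta, 4.57 ± 0.31 in the aortic valve and 2.72 ± 0.30 in the mitral valve. CHT over Ctrl was 3.77 ± 0.49, 2.68 ± 0.29 and 2.27 ± 0.32.

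**Figure D3:**
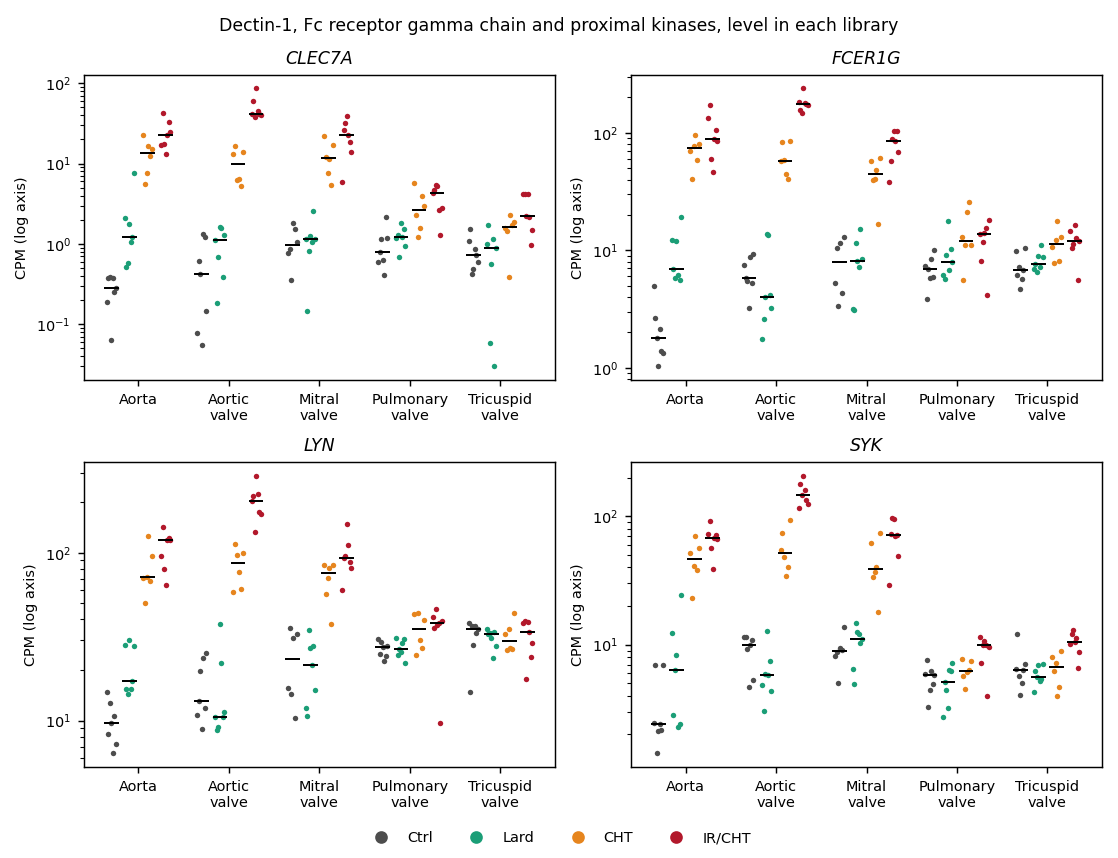
Level of CLEC7A, FCER1G, LYN and SYK in each library, in CPM on a log axis, by tissue and treatment, where each point is 1 library and each bar the median of its group. The 1 library with no CLEC7A count, in the Lard tricuspid valve, is drawn at the foot of its panel. In the aortic valve all IR/CHT points lie above all points of the other 3 groups for each of the 4 genes.

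The aorta was sequenced on plate 2 only, so no comparison of plates was possible there. In the aortic valve all 7 genes were past the thresholds for IR/CHT against Lard on plate 1 alone (log2 fold changes of 2.71 to 5.75) and on plate 2 alone (3.36 to 5.35). The mitral valve also gave 7 on each plate, with log2 fold changes of 1.82 to 4.44 and 2.22 to 4.11. None of the 15 libraries closer to another tissue was a Lard or IR/CHT library of the aortic valve, and L175, L179 and L195 were IR/CHT libraries of the mitral valve, where without them 7 genes were past the thresholds, with log2 fold changes of 2.13 to 4.33 in place of 2.08 to 4.25. The share of all genes called was not taken from these refits, so their counts only describe the 7 genes.

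For CHT over Ctrl, the 7 genes without the libraries closer to another tissue (2 Ctrl and 2 CHT libraries in the aortic valve, 2 Ctrl and 1 CHT in the mitral valve) had log2 fold changes of 1.73 to 4.68 in the aortic valve and 1.29 to 3.63 in the mitral valve, in place of 1.58 to 4.23 and 1.19 to 3.53. Marker sums of other cell types differed between the same groups. In the aorta smooth muscle markers summed to 81338 to 114980 CPM in Ctrl and 31402 to 80872 CPM on CHT, and macrophage markers to 66.7 to 295 and 393 to 1002 CPM, both without overlap. In the mitral valve smooth muscle markers had 114 to 333 CPM in Ctrl and 341 to 1226 CPM on CHT, without overlap and in the other direction. Macrophage markers did not overlap in the aortic valve either, at 192.8 to 613 and 710.1 to 1042 CPM, while the other marker lists of these 3 tissues overlapped between Ctrl and CHT. The part of these markers in the values was not tested.

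IR/CHT was compared with CHT to see what irradiation added on the same diet. In the aortic valve all 7 genes were past the thresholds and higher on IR/CHT, beside 19.7% of all genes tested. No IR/CHT library overlapped with a CHT library for any of the 7, and how many of all genes separated so was not counted. CLEC7A had the largest log2 fold change, 2.27 ± 0.47 or 4.83-fold. FCER1G was higher by 1.53 ± 0.37 and TLR2 by 1.402 ± 0.25. The other 4 genes had nearly the same value, from 1.24 for LYN to 1.39 for SYK. All 6 CHT libraries of this valve were on plate 1, and against them the 4 IR/CHT libraries of plate 1 had log2 fold changes of 1.34 to 2.46. Without the CHT libraries L186 and L228, closer to another tissue, the values were 1.21 to 2.03. Of the macrophage markers described below 6 of 10 were called higher on IR/CHT than on CHT in this valve. Their sum was 710 to 1042 CPM on CHT and 1727 to 2140 CPM on IR/CHT, without overlap. T cell markers summed to 0.406 to 3.84 CPM on CHT and 5.18 to 23.2 CPM on IR/CHT and mast cell markers to 0.760 to 2.89 and 3.73 to 6.44 CPM, both without overlap. The part of these markers in the result was not tested.

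In the other tissues none of the 7 genes was past the thresholds for IR/CHT against CHT (edgeR). The share of all genes called was 0.596% for the aorta, 0.189% for the mitral, 0.0761% for the pulmonary and 0% for the tricuspid valve. Aorta and mitral valve values were above 0 for all 7 genes, with log2 fold changes of 0.43 to 0.89 and 0.46 to 0.84. SEs of these values ran from 0.24 to 0.45 in the aorta and from 0.24 to 0.42 in the mitral valve. Without the mitral valve libraries closer to another tissue (CHT L266 and IR/CHT L175, L179 and L195) the values there were 0.68 to 1.13, and none was past the thresholds. CD14 in the pulmonary and tricuspid valves had log2 fold changes of 0.96 ± 0.27 and 0.63 ± 0.21, and of 1.098 and 0.69 without the libraries closer to another tissue. By DESeq2 CD14 was past the thresholds in the pulmonary valve (log2 fold change 0.95) and none of the 7 in the other 3 tissues. Whether the difference between IR/CHT and CHT itself differed between tissues was not tested.

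Lard was compared with Ctrl to describe the response to the other diet. In the aorta 5 of the 7 genes were past the thresholds and higher on Lard, beside 2.61% of all genes. FCER1G had a log2 fold change of 2.15 ± 0.36, CLEC7A of 2.91 ± 0.56 and CD14 of 1.76 ± 0.34. TLR2 was higher by 1.57 ± 0.32 and LYN by 1.097 ± 0.23. SYK at 1.29 ± 0.46 and TLR4 at 0.96 ± 0.30 were not past the thresholds, though by DESeq2 TLR4 was. Lard and Ctrl libraries did not overlap for CD14, CLEC7A and FCER1G, and how many of all genes separated so was not counted. Library L578 had the highest Lard value of CD14, CLEC7A, FCER1G, SYK and TLR4, and without it 5 genes were past the thresholds, with CLEC7A at 2.11. In a fit of the Lard and Ctrl libraries alone none of the genes was, with log2 fold changes close to those above, and there CLEC7A was removed by the filter on low counts. Markers of several cell types differed along with these genes in the aorta. Endothelial markers summed to 88.7 to 188.9 CPM in Ctrl and 203 to 495 CPM on Lard, without overlap. Macrophage markers summed to 66.7 to 295 and 180.8 to 447 CPM, fibroblast markers to 6346 to 13194 and 7476 to 20006 CPM and smooth muscle markers to 81338 to 114980 and 52618 to 104360 CPM, each with overlap and the last with the lower median on Lard. Mast cell markers summed to 1.21 to 11.2 CPM in Ctrl (median 2.89) and 4.32 to 8.98 CPM on Lard (median 6.93), with overlap. T cell markers lay at or under 2.48 CPM in both groups (medians 0.322 and 0.953), and neutrophil, platelet, B cell, red blood cell and heart muscle markers overlapped as well. The highest Lard library had neutrophil markers at 28.1 CPM, where the Lard median was 2.57 CPM and the highest Ctrl library had 3.07 CPM. The part of these markers in the result was not tested.

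In the valves no member was past the thresholds for Lard against Ctrl by edgeR or DESeq2. Of all genes 0.234% were called for the aortic valve, and 0% for each of the other 3 valves. The aortic valve values ran from -0.49 for SYK to 0.87 for CLEC7A, with 6 of the 7 genes under 0. This direction turned between plates, with a median of 0.23 over the 7 genes (-0.25 to 2.34, the highest being CLEC7A) on plate 1 alone and -0.44 (-0.73 to 0.29) on plate 2 alone. It turned in the mitral valve too, with medians of 0.37 (0.05 to 0.72) and -0.53 (-1.38 to -0.23). CD14 was at -0.46 ± 0.33 in the aortic valve and -0.31 ± 0.39 in the mitral valve, where the aorta had 1.76, and CLEC7A in the aortic valve at 0.87 ± 0.51. Without the Ctrl libraries closer to another tissue, L240 and L277 of the aortic and L183 and L241 of the mitral valve, the 7 genes lay within -0.56 to 1.05 and -0.04 to 0.33.

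The valves of the right heart showed smaller differences. In the pulmonary valve CD14 was at 11.2 CPM (7.19 to 13.9) in Ctrl, 11.5 (5.23 to 15.1) on Lard, 10.7 (5.96 to 14.9) on CHT and 19.9 (7.37 to 28.4) on IR/CHT, and IR/CHT overlapped with the other groups. CLEC7A in that valve was at 0.786 CPM (0.408 to 2.16) in Ctrl, 1.22 (0.689 to 1.84) on Lard, 2.61 (1.23 to 5.66) on CHT and 4.29 (1.29 to 5.41) on IR/CHT. On IR/CHT against Lard, CD14 was higher by a log2 fold change of 0.999 ± 0.25 and CLEC7A by 1.62 ± 0.37. SYK was at 0.84 ± 0.23, and the other 4 genes lay between 0.15 and 0.44. Without the pair L271 and L272, CD14 was at 0.95, no longer past the thresholds, and CLEC7A at 1.62. Leaving out any of 11 of the 14 Lard and IR/CHT libraries left CD14 no longer past the thresholds, and any of 3 of them CLEC7A. Without all libraries closer to another tissue, L275 among them, CD14, CLEC7A and SYK were at 1.097, 1.77 and 1.03, each past the thresholds. SYK, not past them in the main fit, was also past them on plate 1 alone (1.26) and by DESeq2 (0.84). CD14 and CLEC7A had log2 fold changes of 1.103 and 2.1 on plate 1 alone, neither past the thresholds. On plate 2 alone CD14 and CLEC7A had log2 fold changes of 0.70 and 0.62, again neither past the thresholds. Without L271 the Lard level of CD14 was 11.8 (5.23 to 15.1) CPM and that of CLEC7A 1.24 (0.689 to 1.84) CPM, and without L275 the IR/CHT levels were 22.1 (18.4 to 28.4) and 4.46 (2.66 to 5.41) CPM. Without these 2 libraries IR/CHT and Lard did not overlap for either gene. Macrophage markers in this valve summed to 511 to 767 CPM on Lard and 254 to 837 CPM on IR/CHT, and their part in the result was not tested.

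In the tricuspid valve CD14 was at 9.09 CPM (5.95 to 9.63) in Ctrl, 7.94 (5.98 to 11.6) on Lard, 10.9 (8.39 to 16.9) on CHT and 19.5 (8.75 to 23.9) on IR/CHT. It was higher on IR/CHT than on Lard by 1.03 ± 0.21, with 1.11 without L271 and L272 and 1.18 without all libraries closer to another tissue. Leaving out any of 6 of the 14 libraries left it no longer past the thresholds. On plate 1 its log2 fold change was 1.401 and on plate 2 it was 0.46, the latter not past the thresholds. Without Ctrl L168, Lard L272 and IR/CHT L197 its levels were 9.24 (5.95 to 9.63), 7.88 (5.98 to 11.6) and 19.9 (8.75 to 23.9) CPM, in that order. CLEC7A had the largest value, 1.87 ± 0.56, from levels of 0.731 CPM (0.428 to 1.54) in Ctrl, 0.892 (0 to 1.73) on Lard, 1.63 (0.389 to 2.31) on CHT and 2.21 (0.972 to 4.24) on IR/CHT. SYK was at 0.85 ± 0.23 and FCER1G at 0.56 ± 0.22. LYN was near 0 at 0.02 ± 0.17, where the mitral valve had 2.15 ± 0.30. TLR2 at 0.09 ± 0.27 and TLR4 at 0.12 ± 0.22 were close to 0 as well. The mean log2 CPM of the macrophage markers in this valve had a median of 4.29 (3.95 to 4.66) on Lard and 5 (4.16 to 5.19) on IR/CHT. The part of these markers in the values was not tested.

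In the right heart valves the ranges of the other 5 genes were read over the 4 treatments together. FCER1G ranged over 3.87 to 25.6 CPM in the pulmonary and 4.65 to 17.6 CPM in the tricuspid valve, and SYK over 2.71 to 11.5 and 3.98 to 12.9 CPM. LYN ranged over 9.64 to 46.0 and 14.8 to 43.9 CPM and TLR4 over 4.14 to 40.0 and 9.13 to 39.2 CPM, where L275 held the lowest value of both in the pulmonary valve. TLR2 ranged over 1.84 to 5.22 and 2.14 to 7.26 CPM. With all libraries kept, in no right heart valve did any of the 7 genes separate 2 treatments without overlap among the 5 comparisons made.

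The difference of the IR/CHT against Lard change between tissues was fitted as an interaction, and for the 7 genes it is again a description. Between the aortic and pulmonary valves, both semilunar valves, 7 of 7 were past an adjusted p of 0.05, beside 34.3% of all genes tested, each with the larger value in the aortic valve. FCER1G differed most, with a log2 difference of 4.32 ± 0.49, and TLR2 least, with 2.63 ± 0.32. Between the mitral and tricuspid valves, both atrioventricular valves, 7 of 7 were past it too, beside 9.04% of all genes, with log2 differences of 1.91 for SYK to 2.71 for FCER1G. CLEC7A there was not past it with the rabbit as a replicate block (log2 difference 1.80, limma) or without the tricuspid valve Lard library L193. Without the pair L271 and L272, and without all libraries closer to another tissue, 7 genes were past it in each of these 2 comparisons.

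The aortic valve and the aorta were closer to each other. Of the 7 genes 5 were past the same threshold, beside 16.4% of all genes, again with the larger value in the valve, CLEC7A by 1.98 ± 0.64 and LYN by 1.20 ± 0.38. CD14, FCER1G and SYK differed by 1.36, 1.35 and 1.46. TLR2 at 0.77 ± 0.38 and TLR4 at 1.07 ± 0.46 were not. With the rabbit as a replicate block 4 genes were past it, without CLEC7A and SYK and with TLR4, and leaving out single libraries gave between 1 (without the aorta Lard library L578) and 7 (without the aortic valve Lard library L232). All aorta libraries were on plate 2 and valve libraries on both plates.

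The tissues also differed in the level they had on chow. In Ctrl rabbits the aorta had the lowest median of each of the 7 genes. For CD14 the medians fell from the pulmonary valve at 11.2 CPM over the tricuspid (9.09), mitral (8.32) and aortic (7.01) valve to the aorta (2.52). For TLR4 the order was pulmonary (26.0 CPM), tricuspid (22.6), mitral (13.9) and aortic valve (7.73) and then aorta (5.91). SYK had another order, with the aortic (9.85 CPM) and mitral (8.93) valves above the tricuspid (6.30) and pulmonary (5.80) valves. Neighbours in these orders overlapped in their libraries. LYN was highest in the tricuspid valve at 34.9 CPM, while the medians of CLEC7A, FCER1G and TLR2 in the 4 valves lay within 0.423 to 0.960, 5.85 to 7.89 and 2.75 to 3.83 CPM.

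Of the Ctrl levels, 5 of the 7 genes were past the thresholds and higher in the aortic valve than in the aorta, where 49.6% of all genes were called in either direction. TLR2 was higher by a log2 fold change of 1.88 ± 0.29, FCER1G by 1.56 ± 0.33 and CD14 by 1.56 ± 0.31. SYK was higher by 1.36 ± 0.32 and LYN by 0.70 ± 0.26, the latter at 0.49 and not past the thresholds without the libraries closer to another tissue. Between the aortic and pulmonary valves 3 of the 7 were past the thresholds, a share under the 48.2% of all genes called. The aortic valve had less TLR4 (-1.55 ± 0.34) and less LYN (-0.71 ± 0.26), and more SYK (0.73 ± 0.31), which was not past the thresholds when any of 9 single libraries was left out. With the rabbit as a replicate block CLEC7A was past them as well (log2 fold change -1.12), and with plate as a covariate CD14 was (-0.79). No member was past them between the mitral and tricuspid valves (5.33% of all genes), the aortic and mitral valves (2.75%) or the pulmonary and tricuspid valves (10.7%). Without the libraries closer to another tissue, which include the mitral valve Ctrl libraries L183 and L241 with high TLR4, the mitral valve was past the thresholds for less TLR4 (-1.25) and less LYN (-0.91) than the tricuspid valve. Marker sums in the same Ctrl libraries differed with tissue. Between the aortic valve and the aorta, fibroblast markers summed to 14426 to 20637 and 6346 to 13194 CPM, smooth muscle markers to 429 to 1257 and 81338 to 114980 CPM, heart muscle markers to 152.6 to 11837 and 63.3 to 149.6 CPM and platelet markers to 11.2 to 68.9 and 1.16 to 3.39 CPM, each without overlap. Macrophage markers, at 192.8 to 613 and 66.7 to 295 CPM, and endothelial markers, at 75.5 to 585 and 88.7 to 188.9 CPM, overlapped, with the higher medians in the aortic valve. Between the aortic and pulmonary valves, endothelial markers were lower in the aortic valve (75.5 to 585 against 1071 to 1582 CPM) and fibroblast markers higher (14426 to 20637 against 9816 to 13970 CPM), as were B cell (2.54 to 17.0 against 0.337 to 1.46 CPM), platelet (11.2 to 68.9 against 4.55 to 7.97 CPM) and red blood cell markers (12.6 to 156.5 against 1.33 to 8.24 CPM), all without overlap. Macrophage markers, at 192.8 to 613 and 530.3 to 675 CPM, overlapped. The part of these markers in the Ctrl differences was not tested.

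Macrophage markers moved with the 7 genes. In the list of 10 markers (led by MRC1, the mannose receptor, at a mean of 217 CPM), the summed level in the aorta was 137 (66.7 to 295) in Ctrl, 352 (180.8 to 447) on Lard, 829 (393 to 1002) on CHT and 1120.2 (558 to 2012) on IR/CHT. The aortic valve had 486 (192.8 to 613) in Ctrl, 238.5 (127 to 712) on Lard, 872 (710.1 to 1042) on CHT and 1953 (1727 to 2140.3) on IR/CHT. In the mitral valve it was 393 (217 to 654) in Ctrl, 421 (188.2 to 716) on Lard, 811 (594 to 923) on CHT and 1091 (773 to 1273) on IR/CHT. No IR/CHT library overlapped with a Lard library in any of these 3 tissues, as for the 7 genes. Of the 10, 1 (MARCO) was under 1 CPM on average and none was at 0 in all libraries. In the pulmonary valve the sum was 659 (530.3 to 675) in Ctrl, 568.6 (511 to 767) on Lard, 660.2 (488 to 746) on CHT and 751 (254 to 837) on IR/CHT, and in the tricuspid valve 582.4 (532 to 743) in Ctrl, 619 (472 to 709) on Lard, 622 (508 to 810.4) on CHT and 790.2 (446 to 909.8) on IR/CHT. The part of this marker change in the results of the 7 genes was not tested.

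To set the 7 genes beside the markers, the mean log2 CPM of the 10 macrophage markers was subtracted from each gene's log2 CPM in each library. CD14 then went in the aorta from a median of -1.16 in Ctrl and -0.71 on Lard to 0.70 on CHT and 0.84 on IR/CHT, and in the aortic valve from -1.12 and -1.72 to 0.84 and 1.26. FCER1G in the aortic valve went from -1.32 and -1.49 to 0.39 and 1.12, and CLEC7A from -4.87 and -3.82 to -2.07 and -0.99. The medians of these 3 genes shifted by more than the marker mean, and their IR/CHT values in the aortic valve did not overlap with those of Ctrl or Lard. SYK in the aortic valve showed the same, with medians of -0.79 (-1.48 to -0.43) in Ctrl, -0.93 (-1.52 to -0.28) on Lard and 0.79 (0.27 to 1.36) on IR/CHT. In the aorta SYK had a median of -1.04 (-2.32 to 1.1) in Ctrl and 0.25 (-0.03 to 0.58) on IR/CHT, so that the Ctrl range enclosed that of IR/CHT. TLR4 in the aorta was at -0.05, -0.33, -0.24 and -0.13 in Ctrl, Lard, CHT and IR/CHT, and TLR2 at -2.38, -2.11, -1.93 and -2.08. In that tissue the levels of both receptors changed about as much as the marker mean, while TLR4 in the aortic valve went from -1.25 (-1.54 to -0.28) in Ctrl to 0.27 (-0.54 to 0.36) on IR/CHT, with overlap. In the pulmonary valve, SYK relative to the markers was nearly the same in the 4 groups, from -1.89 to -1.81, and the median of LYN was lower on IR/CHT (0.17) than in the other groups (0.51 to 0.67), whose ranges overlapped with it. These values are descriptions and were not tested.

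**Figure D4:**
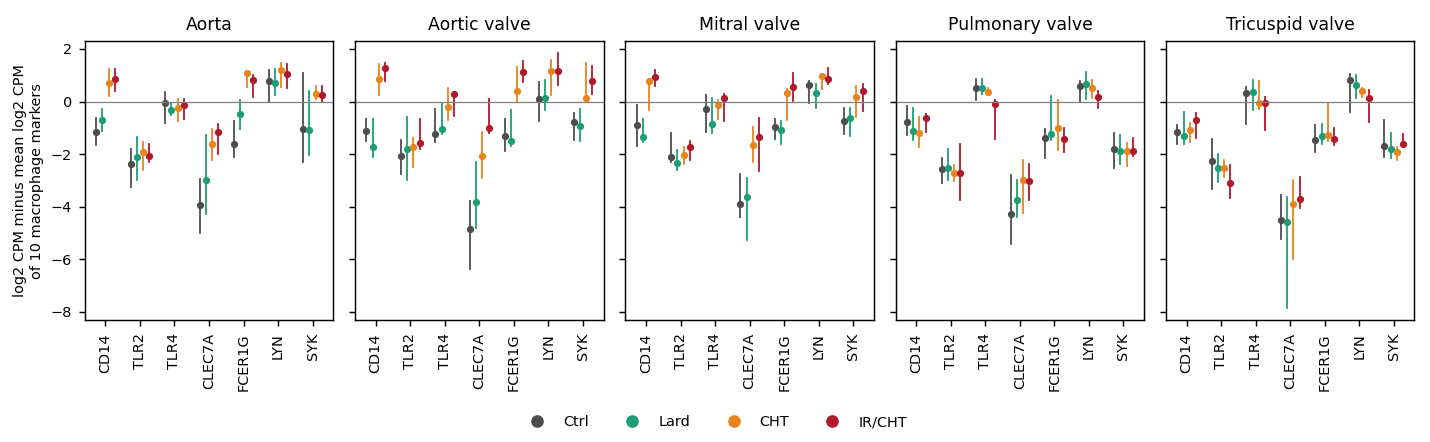
Log2 CPM of each of the 7 genes minus the mean log2 CPM of 10 macrophage markers, by tissue and treatment, where points are group medians and lines reach from the lowest to the highest library. The medians of CD14, FCER1G, CLEC7A, SYK and LYN are higher on CHT and IR/CHT than in Ctrl and on Lard in the aorta and both left heart valves. Those of TLR2 and TLR4 in the aorta keep to a narrow range.

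Markers of other cell types were read as well. T cell markers (3 genes, of which CD5 was the most abundant at 1.39 CPM and 2 were under 1 CPM) summed in the aortic valve to 0.0503 to 0.995 CPM on Lard and 5.18 to 23.2 CPM on IR/CHT, without overlap. The same held in the aorta, with 0 to 1.43 and 2.70 to 10.9 CPM, and in the mitral valve, with 0.148 to 0.658 and 2.18 to 16.3 CPM. Neutrophil markers, 7 of 9 of which were under 1 CPM, stayed low, at 0.932 to 9.38 CPM on Lard and 4.05 to 8.10 CPM on IR/CHT in the aortic valve, with CXCR1 the most abundant at 1.21 CPM. B cell markers (PAX5 the most abundant at 1.65 CPM, 3 of 5 under 1 CPM) had 2.75 to 9.68 and 0.824 to 4.79 CPM there, mast cell markers (KIT at 1.91 CPM, 3 of 4 under 1 CPM) 0.433 to 1.81 and 3.73 to 6.44 CPM. Platelet markers (ITGA2B at 8.09 CPM, 2 of 3 under 1 CPM) had 8.75 to 34.2 CPM on Lard and 3.797 to 8.62 CPM on IR/CHT, and red blood cell markers (ALAS2 at 28.5 CPM, 1 of 2 under 1 CPM) 1.68 to 452 and 1.15 to 26.9 CPM. In the aorta the smooth muscle markers, led by MYH11 at 11500 CPM over all libraries, summed to 52618 to 104360 CPM on Lard and 11343 to 60666 CPM on IR/CHT, and endothelial markers, led by PECAM1 at 325 CPM, to 203 to 495 and 202 to 1061 CPM. Fibroblast and valve interstitial cell markers, led by COL3A1 at 5030 CPM, were at 17039 to 25863 CPM on Lard and 14979 to 28140 CPM on IR/CHT in the aortic valve. Heart muscle markers, led by MYH7 at 2020 CPM, were at 10.1 to 225 CPM on Lard and 7.47 to 235.97 CPM on IR/CHT in the aortic valve, and at 72.4 to 192.7 and 43.4 to 2832 CPM in the aorta. The part of these markers in the results was not tested.

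Across all libraries the log2 levels of the 7 genes went together, with Pearson's r from 0.670 for SYK and TLR4 to 0.955 for CD14 and FCER1G. The libraries share rabbits, tissues and treatments, so these values describe the set and carry no test. With the mean of each of the 20 groups removed, r ranged from 0.367 for CLEC7A and TLR2 to 0.852 for LYN and TLR4. CD14 and TLR4, the pair that acts on lipopolysaccharide, had 0.768, and CLEC7A had at most 0.524 with any of the others. With the mean of the macrophage markers, r within groups was 0.764 for CD14, 0.759 for TLR4, 0.750 for FCER1G, 0.703 for LYN, 0.606 for SYK, 0.510 for TLR2 and 0.405 for CLEC7A.

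**Figure D5:**
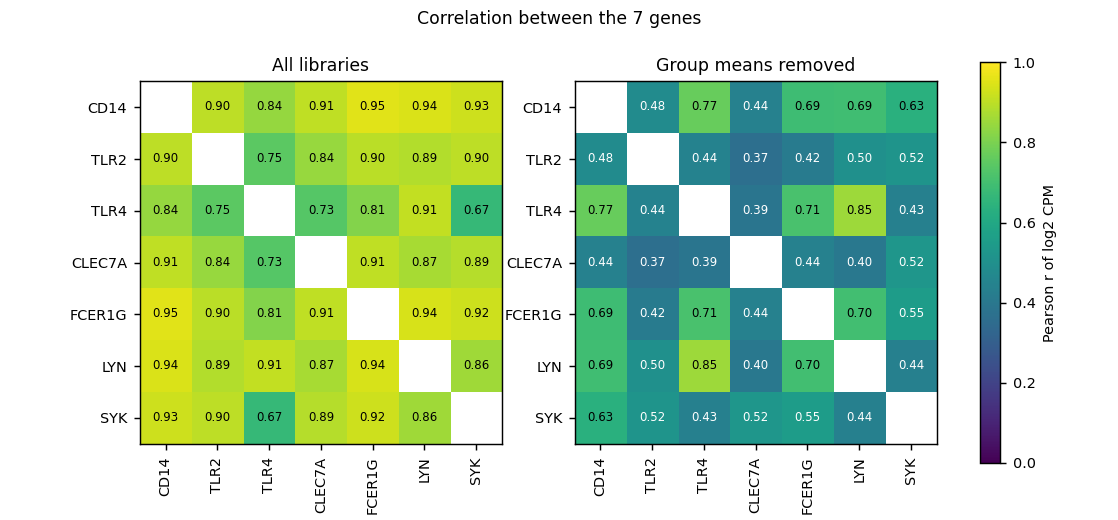
Pearson's r between the log2 CPM of the 7 genes, over all libraries and after subtraction of each group's mean. All pairs reach at least 0.670 over all libraries, and within groups LYN and TLR4 have the highest value, 0.852.

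Among 10677 genes with a symbol and at least 1 CPM in 6 or more libraries, those with the profile most like CD14 over all libraries were CD84 (r = 0.971), HCLS1 (0.965) and TYROBP (0.963). For FCER1G they were AIF1 (0.970), a macrophage marker also called Iba1, CD84 (0.966) and HCLS1 (0.964). CLEC7A was most like ITGAM (0.935), which encodes the integrin CD11b, and then CTSS and HCLS1 (both 0.920). SYK had VAV1 (0.978), a guanine nucleotide exchange factor, MYO1F (0.975) and ARHGAP30 (0.975). For LYN the nearest were AOAH (0.971), an enzyme that inactivates lipopolysaccharide, PTPRC (0.965), the leukocyte antigen CD45, and CD53 (0.964). TLR4 was most like CYBB (0.943), a subunit of the phagocyte NADPH oxidase, SLC7A7 (0.920) and CD53 (0.916). TLR2 had MATN1 (0.938), known as a cartilage matrix gene, ahead of NCKAP1L (0.935) and LCP2 (0.931). The values describe these libraries and carry no test.

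The other genes of these pathways were read from 6 lists in the same fits (64 of 95 listed genes had a symbol in the tables), beside the shares of all genes called given above. Of the Toll-like receptor family and co-receptors, 6 of 7 tested genes rose on IR/CHT against Lard in the aortic valve and 6 of 7 in the aorta, where TLR6, the partner of TLR2, fell by 0.63 on the log2 scale (adjusted p = 0.0458). TLR8, a receptor for single-stranded RNA, was at 7.15 (2.77 to 13.7) CPM on Lard and 176.1 (122 to 227) CPM on IR/CHT in the aortic valve, and rose by 4.46 ± 0.42 there (adjusted p = 2.31e-09) and by 3.50 ± 0.43 in the aorta (adjusted p = 8.45e-07). CD36, a scavenger receptor for oxidized lipoproteins and a co-receptor of TLR2, had the largest change, from 0.906 (0.111 to 3.03) CPM to 164 (63.7 to 337) CPM in the aortic valve, a log2 fold change of 7.37 ± 0.71 or 165.7-fold (adjusted p = 3.02e-09). TLR1 rose in the aorta by 2.90 ± 0.40 (adjusted p = 5.32e-06). In the mitral valve 4 of 7 rose, and none of 6 in the pulmonary or of 7 in the tricuspid valve did. The list's median log2 fold change was 3.31 for the aortic valve, 1.77 for the aorta and 1.07 for the mitral valve.

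The adaptors and kinases downstream of the Toll-like receptors had smaller median changes. Of 10 tested, 5 rose in the aorta, beside 15.3% of all genes, while the aortic valve had 3 that rose and 1, IRAK3, that fell, a share close to the 39.4% of all genes called there. IRAK3 is known as an inhibitor of this pathway, and went from 22.2 (11.2 to 24.9) CPM on Lard to 10.3 (6.15 to 12.2) CPM on IR/CHT (-1.11 ± 0.21, adjusted p = 7.58e-05). TICAM2, which couples TLR4 to TICAM1, rose by 2.46 ± 0.40 in the aortic valve (adjusted p = 1.52e-05). In the aorta the kinase IRAK2 rose by 1.42 ± 0.34 (adjusted p = 0.00213) and TIRAP, which links TLR2 and TLR4 to MyD88, by 2.02 ± 0.56 (adjusted p = 0.00655). The medians of this list were 0.75 for the aorta, 0.45 for the aortic valve and 0.50 for the mitral valve, where 3 of 10 rose. Of the 10 none was called in the pulmonary or tricuspid valve.

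Receptors and adaptors with ITAMs and C-type lectins rose in 6 of 6 tested genes in the aortic valve, 5 of 6 in the aorta and 6 of 6 in the mitral valve, with median log2 fold changes of 4.90, 2.86 and 3.50, and in 0 of 4 in the pulmonary and 0 of 4 in the tricuspid valve. TYROBP, the ITAM adaptor DAP12, rose by 5.05 ± 0.35 in the aortic valve (adjusted p = 8.81e-12) and by 3.63 ± 0.40 in the aorta (adjusted p = 1.88e-07). CLEC4D, a C-type lectin that signals through FCER1G, rose by 4.58 ± 0.35 in the aortic valve (adjusted p = 5.57e-11), and CLEC4A by 2.92 ± 0.43 in the aorta (adjusted p = 1.36e-05). Of the other Src family kinases and the effectors of SYK, 16 of 21 rose in the aortic valve and 2 fell, and 16 of 20 rose in the aorta. BLNK, an adaptor phosphorylated by SYK, rose by 4.32 ± 0.24 in the aortic valve (adjusted p = 3.42e-13) and 3.27 ± 0.36 in the aorta (adjusted p = 2.35e-07), and PIK3AP1 by 3.59 ± 0.22 (adjusted p = 1.19e-12) and 2.32 ± 0.24 (adjusted p = 7.65e-08). The 2 that fell in the aortic valve were PLCG1 and YES1, by 1.12 and 1.24 on the log2 scale (adjusted p = 1.78e-07 and 0.0104). In the mitral valve 14 of 21 rose, in the pulmonary valve 3 of 19 and in the tricuspid valve 0 of 19.

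Genes listed as inhibitors of receptor signaling rose as well, 5 of 7 in the aortic valve, 3 of 7 in the aorta and 5 of 7 in the mitral valve, and none of 7 in the pulmonary or tricuspid valve. PTPN6, the phosphatase SHP-1, rose by 4.27 ± 0.25 in the aortic valve (adjusted p = 8.32e-13), and INPP5D, the lipid phosphatase SHIP1, by 2.34 ± 0.30 in the aorta (adjusted p = 1.63e-06). PTPRC, the leukocyte antigen CD45, was also on this list, and its rise is not read here as that of an inhibitor. It rose by 4.47 ± 0.35 in the aortic valve (adjusted p = 1.05e-10) and 3.03 ± 0.35 in the aorta (adjusted p = 4.08e-07). Of NF-κB subunits and target genes 6 of 11 rose in the aortic valve, 7 of 11 in the aorta and 5 of 10 in the mitral valve, and of those tested in the right heart valves (10 and 9) none did. The subunit REL rose by 2.36 ± 0.32 in the aortic valve (adjusted p = 8.48e-07) and 1.48 ± 0.23 in the aorta (adjusted p = 2.31e-05), and the chemokine CCL2 by 2.67 ± 0.39 in the aortic valve (adjusted p = 2.43e-06). TNF, a cytokine under NF-κB control, rose in the aorta by 4.19 ± 0.64 (adjusted p = 1.76e-05), from 0 to 0.179 CPM on Lard to 0.857 to 2.96 CPM on IR/CHT.

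On CHT against Ctrl these lists were called as follows, where 19.4% of all genes were called for the aorta, 11.9% for the aortic, 5.62% for the mitral, 0.159% for the pulmonary and 0.163% for the tricuspid valve. All 6 ITAM and C-type lectin genes rose in the aorta and in both left heart valves. Of the Toll-like receptor family 4 of 7 rose in the aorta, 4 of 7 in the aortic and 2 of 7 in the mitral valve, and of the adaptors and kinases 2 of 10, 0 of 10 and 0 of 10, in the same order. Src family and Syk effectors rose in 14 of 20, 10 of 21 and 10 of 21 genes, inhibitors in 4 of 7, 4 of 7 and 3 of 7. Of the NF-κB genes 7 of 11 rose and 1 fell in the aorta, and 3 of 11 and 1 of 10 rose in the aortic and mitral valves. No gene of the 6 lists was called in the pulmonary or tricuspid valve. On IR/CHT against CHT in the aortic valve, beside 19.7% of all genes called, 6 of 6 ITAM and C-type lectin genes, 13 of 21 Src family and Syk effectors, 3 of 7 of the Toll-like receptor family and 4 of 10 adaptors and kinases were higher, as were 4 of 7 inhibitors and 2 of 11 NF-κB genes, with 1 effector and 1 adaptor lower. The NF-κB count is near the share of all genes, and in the aorta none of the genes of the 6 lists was called. On Lard against Ctrl in the aorta, beside 2.61% of all genes, 5 of 6 ITAM and C-type lectin genes, 6 of 20 Src family and Syk effectors, 3 of 7 inhibitors, 1 of 7 of the Toll-like receptor family, 1 of 11 NF-κB genes and 0 of 10 adaptors and kinases rose, and no gene of the lists was called in any valve. The lists were written with earlier results of these samples known, so their counts describe these data. Comparisons that share a group of libraries are not independent of each other.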

How the data were processed

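Total RNA libraries (SMARTer Stranded Total RNA-Seq Pico v2) of rabbit tissue were sequenced by the study on 2 plates. The authors ran the nf-core/rnaseq pipeline on genome build OryCun2.0 with Ensembl genes and deposited 1 table of raw gene counts per plate, with no normalization; bcl2fastq 2.20 is named in the submitters' processing notes. The plates shared the same gene rows and were joined, and columns were matched to samples by library number, which left 0 columns unmatched. Multi-mapping reads could not be examined in such counts, and no genome sequence of this build was used here.

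Here counts were filtered with filterByExpr, scaled with TMM and tested with the quasi-likelihood test of edgeR 4.0.16 (limma 3.58.1, R 4.3.3), with 1 fit of the 4 treatments per tissue, a fit of both tissues for each interaction and a fit of the Ctrl libraries. P-values were adjusted over all genes tested by the Benjamini-Hochberg method, and genes were called at an adjusted p under 0.05 and a fold over 1.5 (interactions at the adjusted p alone). CPM levels used TMM over all libraries, and log2 CPM a prior count of 2. SEs were taken as the log2 fold change over the square root of its F statistic. The scripts were tested on simulated counts. Alternatives were DESeq2 1.42.0, its size factors in edgeR, no filter, only the 2 groups compared, plate as a covariate, each plate alone, the rabbit as a replicate block and each library left out. Leaving out the 15 libraries closer to another tissue, or the pair L271 and L272, was chosen after seeing the data.

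The 7 genes and the lists of pathway and marker genes were chosen with earlier results of these data known. Comparisons of the 7 genes were planned as tests and are given without p-values, since that choice used the same libraries, and a gene past the thresholds is named as such only to describe it. Beside the 7 genes, those named were the 2 called genes of each pathway list with the smallest p for IR/CHT against Lard in the aorta or the aortic valve, the 3 most correlated genes of each member and the most abundant gene of each marker list. TLR6, PLCG1, YES1 and MARCO fall outside this rule and were named after their values were seen. Tissues of 1 rabbit carry the rabbit's number in the column names, and deviations from the group means correlated more within rabbits than between them, with a median r of 0.229 and -0.042 for the aortic and pulmonary valves, 0.359 and -0.027 for the mitral and tricuspid valves, 0.256 and -0.047 for the aorta and aortic valve, 0.596 and -0.119 for the aortic and mitral valves and 0.373 and -0.069 for the pulmonary and tricuspid valves. Since every treatment group held different rabbits, comparisons of treatments within a tissue were not paired. The libraries of a group came from different rabbits, and no pair of them agreed within sampling noise.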

Additional observations from a re-analysis of the deposited data

Results flagged for a closer look

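In 11 of 140 groups of libraries, 1 library stood far from the others, with a gap to its nearest neighbour that took up more of the group's log2 range than Dixon's 95% critical value allows. Chance alone flags about 1 group in 20. The 11 came from 7 libraries. Pulmonary valve IR/CHT L275 was the lowest for LYN (9.64 CPM, the next at 35.7, a gap share of 0.837), TLR4 (4.14 CPM, the next at 25.2, share 0.795) and CD14 (7.37 CPM, share 0.678). Its macrophage markers, at 254 CPM, and its endothelial markers, at 84.2 CPM, were the lowest of the pulmonary valve, and their part in these values was not tested. Tricuspid valve Ctrl L168, one of the libraries closer to another tissue, was the lowest for TLR4 (10.7 CPM, the next at 20.1, share 0.681) and LYN (14.8 CPM, the next at 28.2, share 0.677), and Ctrl L159 of the same valve was the lowest for CD14 (5.95 CPM, the next at 8.19, share 0.663). Mitral valve CHT L245 was the lowest for FCER1G (16.7 CPM, the next at 39.9, share 0.675) and CD14 (21.6 CPM, the next at 52.6, share 0.66). In the tricuspid valve CHT L189 was the lowest for CLEC7A (0.389 CPM, the next at 1.43, share 0.715) and IR/CHT L276 for FCER1G (5.57 CPM, the next at 10.4, share 0.573). Aortic valve IR/CHT L178 was the only high one, for TLR2 (44.6 CPM, the next at 29.4, share 0.766).

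The change on IR/CHT against Lard was past the threshold of the interaction test in 19 cases, which are descriptions since the genes were chosen with these libraries in view. Between the aortic and pulmonary valves the log2 difference was 4.06 for CD14, 3.93 for CLEC7A, 4.32 for FCER1G, 3.2 for LYN, 3.66 for SYK, 2.63 for TLR2 and 3.22 for TLR4. For the mitral against the tricuspid valve it was 2.62 for CD14, 2.41 for CLEC7A, 2.71 for FCER1G, 2.16 for LYN, 1.91 for SYK, 2.09 for TLR2 and 1.99 for TLR4. The aortic valve exceeded the aorta by 1.36 for CD14, 1.98 for CLEC7A, 1.35 for FCER1G, 1.2 for LYN and 1.46 for SYK. The median interaction over all genes was -0.151, -0.068 and -0.125 in these 3 comparisons.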

How the results depend on the processing

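All counts of the 7 genes past the thresholds are descriptions, and the share of all genes called was not taken for the refits. Of the fitted log2 fold changes of single genes, 971 of 1062 refits under other settings kept their direction and their side of the threshold, 12 gained a call, 20 lost one and 59, of 36 fold changes, changed sign. Of the refits without 1 library 2309 of 2492 kept both, with 10 calls gained, 79 lost and 94 changes of sign, of 30 fold changes. None of the values that changed sign was called in either fit, and the reported ones were at most 0.86 from 0 (CLEC7A for IR/CHT against CHT in the tricuspid valve). For IR/CHT against Lard the aorta and both left heart valves gave 7 genes under every setting run, as did the aortic valve for IR/CHT against CHT. For Lard against Ctrl in the aorta, a fit of the 2 groups alone called 0 genes, and leaving out single libraries gave 5 to 6 (6 without L576). IR/CHT against Lard in the pulmonary valve gave 1 gene with no filter, 1 with only the 2 groups, 1 on plate 1, 0 on plate 2 and 1 without the pair L271 and L272, against 2. The gene on plate 1 was SYK, with CD14 and CLEC7A both lost there. Without single libraries it gave 0 (Lard L234, IR/CHT L176 and L196), 1 (Lard L155, L192, L250, L271 and L541, IR/CHT L238, L259 and L549) or 3 (Lard L545, IR/CHT L180 and L275). In the tricuspid valve only the 2 groups gave 0, plate 2 gave 0 and DESeq2 gave 3, against 1, and leaving out Lard L161, L235, L251 or L542 or IR/CHT L177 or L181 gave 0. DESeq2 called 1 gene (CD14) for IR/CHT against CHT in the pulmonary valve, and leaving out L175 called 1 gene (TLR2) in the mitral valve, against 0 in both. The difference between the aortic valve and the aorta was called for 3 genes with no filter and for 1 to 7 without single libraries, against 5. There 4 or fewer were called without any of aorta L562, L575, L578, L565, L567, L579, L580, L581 and L582 or aortic valve L152, L173, L190, L248, L269, L543, L174, L178, L236, L257, L273 and L547.

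With the rabbit as a replicate block (limma for the interactions, edgeR for Ctrl levels) the counts were 4 for the aortic valve minus the aorta, 6 for the mitral minus the tricuspid valve and 7 for the aortic minus the pulmonary valve, and for Ctrl levels 5 for the aortic valve against the aorta and 4 against the pulmonary valve. Beyond the genes named beside these results it changed no call. Ctrl levels of the mitral and tricuspid valves differed in 2 genes without the libraries closer to another tissue, against 0. The Ctrl call of SYK between the aortic and pulmonary valves was lost with no filter and without any of L150, L166, L182, L261, L153, L184, L200, L263 or L279, that of LYN there by its fold without L198, and that of LYN between the aortic valve and the aorta without L277, by edgeR. Without L198 CLEC7A and TLR4, and without L166 TLR4, were also called there. The described change of SYK on IR/CHT against Ctrl in the tricuspid valve was -0.036 on plate 2 alone, against 0.61. Described values also moved on 1 plate for CLEC7A in the aortic valve (plate 1, CHT 5.62 against 4.23 and IR/CHT 8.08 against 6.504), and on plate 2 for IR/CHT in the pulmonary valve (SYK 0.196 against 0.73, TLR2 0.84 against 0.501) and for the tricuspid valve (CHT, SYK -0.63 against -0.067 and TLR4 0.86 against 0.34, and IR/CHT, CLEC7A 0.51 against 1.73). The cause of these shifts was not tested. The Ctrl aorta values of CLEC7A rest on 1 to 6 counts per library.

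The log2 fold changes that changed sign were these. On plate 1, Lard against Ctrl gave 0.037 for CD14, 0.56 for LYN, 0.21 for FCER1G, 0.23 for TLR2 and 0.46 for TLR4 in the aortic valve, 0.67 for CD14, 0.37 for LYN, 0.053 for TLR2 and 0.71 for TLR4 in the mitral valve, -0.061 for CLEC7A and -0.001 for TLR2 in the pulmonary valve and 0.068 for SYK, -0.089 for CD14 and 0.22 for CLEC7A in the tricuspid valve. There IR/CHT against CHT gave 0.30 for FCER1G and 0.080 for TLR4 in the pulmonary valve and 0.30 for LYN and 0.33 for TLR4 in the tricuspid valve. On plate 2, Lard against Ctrl gave -0.27 for SYK, -0.53 for FCER1G and -0.23 for CLEC7A in the mitral valve, 0.057 for TLR4 in the pulmonary valve and 0.17 for LYN in the tricuspid valve. There IR/CHT against Lard gave -0.097 for LYN and -0.41 for TLR4 in the pulmonary valve and -0.26 for LYN, -0.27 for TLR2 and -0.48 for TLR4 in the tricuspid valve. There IR/CHT against CHT gave -0.14 for LYN and -0.35 for CLEC7A in the pulmonary valve and -0.60 for FCER1G and -0.34 for CLEC7A in the tricuspid valve. With plate as a covariate, Lard against Ctrl gave -0.027 for FCER1G in the mitral valve and 0.015 for LYN in the tricuspid valve. There Ctrl levels gave -0.059 for CD14 between the mitral valve and the tricuspid valve. Without the libraries closer to another tissue, Lard against Ctrl gave 0.30 for LYN, 0.20 for FCER1G and 0.30 for TLR4 in the aortic valve, 0.22 for LYN and 0.28 for TLR4 in the mitral valve, -0.010 for LYN in the pulmonary valve and 0.043 for SYK, -0.042 for CD14 and 0.021 for CLEC7A in the tricuspid valve. There IR/CHT against CHT gave 0.099 for TLR4 in the pulmonary valve and 0.069 for LYN and 0.051 for TLR4 in the tricuspid valve. There Ctrl levels gave -0.11 for CD14 and -0.19 for FCER1G between the mitral valve and the tricuspid valve and 0.16 for SYK between the aortic valve and the mitral valve. Without the pair L271 and L272, Lard against Ctrl gave -0.004 for LYN in the pulmonary valve and -0.075 for CD14 and 0.018 for LYN in the tricuspid valve. There IR/CHT against Lard gave -0.036 for LYN in the tricuspid valve. With DESeq2 size factors in edgeR, Lard against Ctrl gave -0.001 for CD14 in the tricuspid valve. There Ctrl levels gave 0.064 for SYK between the aortic valve and the mitral valve. With only the 2 groups, Lard against Ctrl gave -0.004 for CD14 in the tricuspid valve. By DESeq2, Lard against Ctrl gave -0.002 for CD14 in the tricuspid valve. With no filter, Ctrl levels gave 0.011 for SYK between the aortic valve and the mitral valve. Without single libraries, the fold changes that changed sign ran from the lowest to the highest value as follows. The ranges for Lard against Ctrl were -0.43 to 0.10 for LYN, -0.41 to 0.092 for FCER1G, -0.36 to 0.045 for TLR2 and -0.50 to 0.094 for TLR4 in the aortic valve, -0.51 to 0.023 for CD14, -0.30 to 0.027 for LYN, -0.20 to 0.21 for FCER1G, -0.20 to 0.33 for CLEC7A and -0.20 to 0.028 for TLR2 in the mitral valve, -0.20 to 0.034 for CD14, -0.031 to 0.050 for LYN and -0.11 to 0.042 for TLR4 in the pulmonary valve and -0.33 to 0.020 for SYK, -0.075 to 0.089 for CD14, -0.15 to 0.019 for LYN and -0.47 to 0.14 for CLEC7A in the tricuspid valve. The ranges for IR/CHT against CHT were -0.046 to 0.20 for LYN, -0.39 to 0.006 for FCER1G and -0.19 to 0.099 for TLR4 in the pulmonary valve and -0.079 to 0.092 for LYN, -0.030 to 0.21 for FCER1G and -0.16 to 0.11 for TLR4 in the tricuspid valve. The ranges for IR/CHT against Lard were -0.036 to 0.11 for LYN and -0.077 to 0.18 for TLR2 in the tricuspid valve. The ranges for Ctrl levels were -0.18 to 0.075 for FCER1G between the aortic valve and the pulmonary valve, -0.19 to 0.31 for CD14 and -0.047 to 0.29 for FCER1G between the mitral valve and the tricuspid valve, -0.081 to 0.18 for SYK between the aortic valve and the mitral valve and -0.19 to 0.035 for FCER1G and -0.050 to 0.52 for CLEC7A between the pulmonary valve and the tricuspid valve.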

Other observations

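The interaction tests also covered the pathway lists. Between the aortic and pulmonary valves the IR/CHT against Lard change was larger in the aortic valve for 5 of 6 ITAM and C-type lectin genes (median log2 difference 4.23), 14 of 21 Src family and Syk effectors (1.94, with 1 smaller) and 5 of 7 inhibitors (1.51). For the Toll-like receptor family it was larger for 4 of 7 (2.75), for NF-κB genes in 4 of 11 (0.28) and for adaptors and kinases in 1 of 10, with 1 smaller (0.10). The mitral valve exceeded the tricuspid valve in 5 of 6 ITAM and C-type lectin genes (2.64), 10 of 21 effectors with 1 smaller (0.87), 4 of 7 inhibitors (0.91), 3 of 8 of the Toll-like receptor family (0.63), 1 of 11 NF-κB genes (-0.003) and 0 of 10 adaptors and kinases (-0.13), by edgeR. Against the aorta the aortic valve had the larger change in 3 of 6 ITAM and C-type lectin genes, 3 of 7 inhibitors, 2 of 8 of the Toll-like receptor family and 4 of 21 effectors, while 1 effector, 1 of 11 NF-κB genes and 1 of 10 adaptors had the smaller one. Of all genes tested 34.3%, 9.04% and 16.4% differed in either direction, and the counts of NF-κB genes and of adaptors and kinases are near or under these shares in all 3 comparisons. These counts describe lists written with earlier results known.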
